A study of Mus musculus with 24 samples.

Results

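The genes described here are 35 genes of the extracellular matrix and of the stromal cells that make it, taken by symbol from the 24421 gene rows of a count table of mouse bone marrow-derived macrophages (BMDMs). They are 6 fibrillar collagen genes, 7 other collagen genes, 12 genes of matricellular proteins, proteoglycans and microfibrils, 2 genes of matrix enzymes, 2 contractile genes, 2 receptor genes and 4 genes of secreted factors. All 35 symbols were found and all 35 passed the filter on low counts. The cells came from C57BL/6J mice aged 12 weeks and carried an OGT knockout (KO) or were wild type (WT). They were given LPS at 100 ng/ml for 12 hours, IL-4 at 10 ng/ml for 12 hours, or nothing (M0), which gave 6 groups of 4 RNA-seq libraries. The libraries are called by the number in their label code, 5 to 8 in KO and 1 to 4 in WT, and 4 values in a row follow that order. The labels do not say how Ogt was deleted, in which cells, how the macrophages were grown, or whether each library is from its own animal or culture. The p-values therefore rest on the spread among the libraries, which may be technical. They treat the 4 libraries of a group as independent. In M0 and IL-4, KO libraries 5 and 6 lay closer to each other than to 7 and 8, and likewise 7 and 8, as given below. If the libraries of such a pair are not independent, the p-values are too small.

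Fibrillar collagens are secreted as procollagen chains by fibroblasts, osteoblasts and other mesenchymal cells, trimmed outside the cell, cross-linked by lysyl oxidase and laid down on a scaffold of fibronectin, type V collagen and small proteoglycans. Macrophages are mainly known for degrading and clearing this matrix, and cultures grown from whole bone marrow can hold adherent mesenchymal stromal cells beside the macrophages. OGT, O-GlcNAc transferase, modifies proteins inside the cell with single N-acetylglucosamine sugars.

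Ogt mRNA was lower in KO, at 35.4 ± 1.13 CPM in KO M0 and 49.6 ± 2.64 CPM in WT M0, 40.6 ± 8.91 CPM in KO LPS and 59.2 ± 5.93 CPM in WT LPS and 33.3 ± 1.24 CPM in KO IL-4 and 54.4 ± 4.05 CPM in WT IL-4 (SD, n = 4 each). CPM are counts per 1e6 counts of the library, scaled with edgeR's factors. The log2 fold changes of Ogt, KO over WT, were -0.49 ± 0.058 (adjusted p = 6.4e-07) in M0, -0.63 ± 0.073 (adjusted p = 2.59e-07) in LPS and -0.71 ± 0.058 (adjusted p = 1.02e-09) in IL-4 (± SE). The KO and WT ranges did not overlap in any state, and the counts cover the whole gene, not the deleted part alone. The 15 macrophage identity markers were present in every group. Of the 24 libraries, 21 held 63429271 to 94942464 gene counts, while KO LPS 7, WT LPS 1 and WT LPS 2, called shallow below, held 172771 to 209368. The limit that a count of 0 allows, 3 counts, was 15.5 to 17.9 CPM in these 3 shallow libraries and 0.0303 to 0.055 CPM in the other 21 (counting error only).

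Matrix and stromal genes made up several percent of the gene counts of these macrophage cultures, and in every state the lowest KO share was above the highest WT share. The 35 genes took 4.56 ± 0.434% of the gene counts in KO M0 and 3.44 ± 0.184% in WT M0 (SD, n = 4 each). They took 3.29 ± 0.111% in KO LPS and 2.69 ± 0.151% in WT LPS, and 3.30 ± 0.361% in KO IL-4 and 2.23 ± 0.0963% in WT IL-4. Ranked by mean CPM per kilobase of transcript in KO M0, the level of Sparc came first at 1552, followed by Col1a1 at 1424, Acta2 at 1405, Col1a2 at 1049.7 and Tagln at 929. In WT M0 the level of Acta2 came first at 1361 CPM per kilobase, followed by Sparc at 1199, Tagln at 972, Col1a1 at 901 and Col1a2 at 703. At the other end stood Lum, at 0.375 CPM per kilobase in KO M0 and 0.0795 in WT M0. In bulk RNA a change in the number of cells of a type and a change in RNA per cell cannot be told apart.

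**Figure D1:**
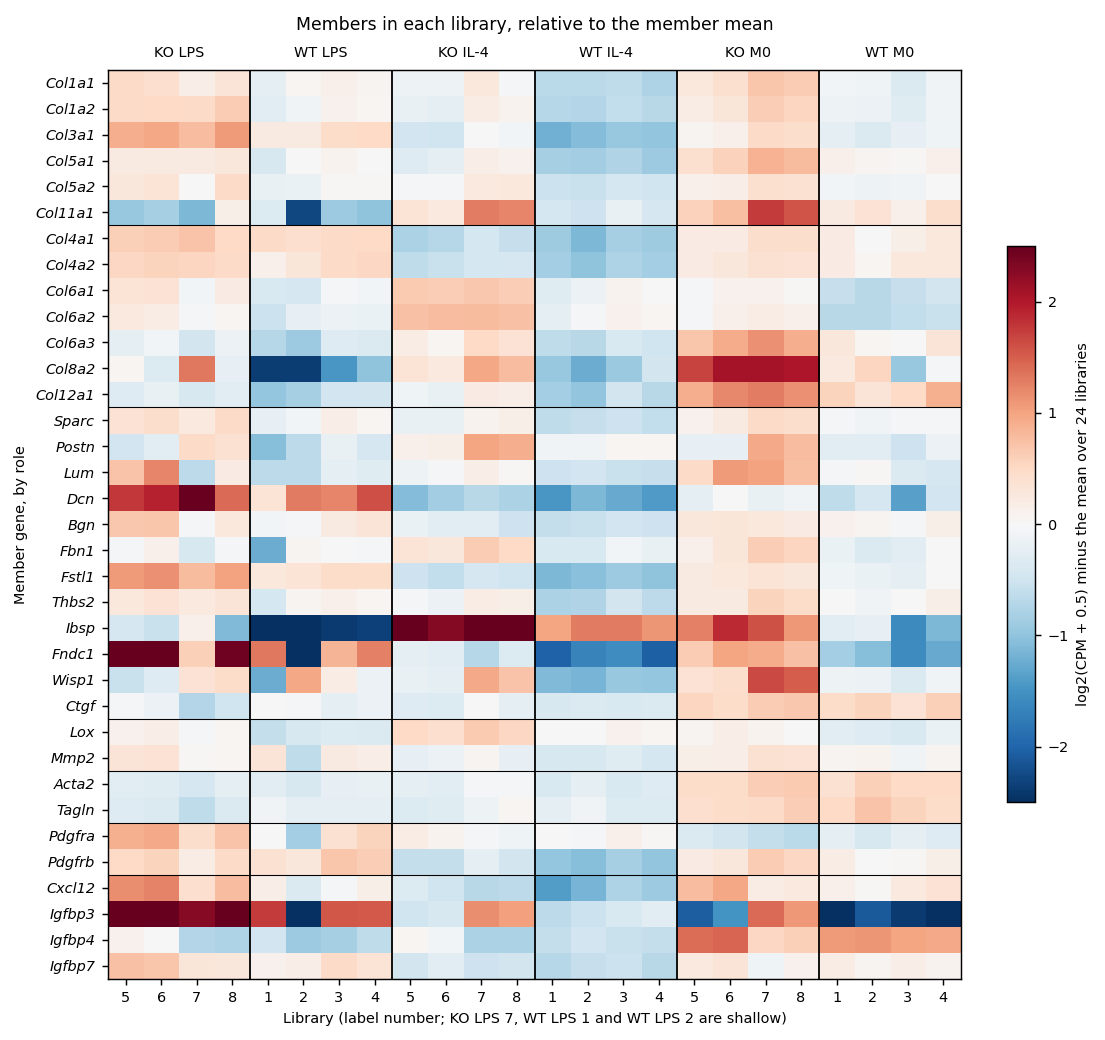
Each row is a gene and each column a library, numbered as in its label; colour is log2(CPM + 0.5) minus the gene's mean over the 24 libraries, cut at 2.5 in both directions. Most rows are higher in KO than in WT of the same state, and within KO M0 and KO IL-4 the columns 7 and 8 differ from 5 and 6 for 23 of the 35 genes.

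The first comparison asks which of these genes differ between KO and WT cultures. In M0, 23 of 35 rose in KO and 0 fell by edgeR's quasi-likelihood test at an adjusted p under 0.05, while 11.6% of all 14693 genes tested were called higher and 10.4% lower. In LPS, 18 rose and 0 fell, against 16.1% and 14.5% of all genes. In IL-4, 27 rose and 0 fell, against 17.7% and 18.1% of all genes. The 35 genes were chosen with earlier results of these data known, so an excess over all genes is not an independent result. DESeq2 also called 0 of them lower in each state, and at an unadjusted p under 0.05 edgeR's test had 1 lower in M0, 0 in LPS and 0 in IL-4. With 1 library left out, Pdgfra was called lower in KO M0 in 18 of 24 fits (-0.29 to -0.22) and Tagln in KO LPS in 16 (-0.23), those without 1 M0 or IL-4 library. The median log2 fold change of the 35 was 0.51 in M0, 0.35 in LPS and 0.63 in IL-4, beside 0.015, 0.012 and 0.0065 over all genes. In M0 all 4 KO values lay above all 4 WT values for 25 of the genes, while 13.5% of all genes did so; in IL-4 this held for 29, against 17.3% of all genes, and in LPS for 14, against 8.04%. The opposite held for 1 gene, Tagln in LPS, where 4.83% of all genes did so. No library enters more than 1 of these comparisons, but same-numbered KO libraries of M0 and IL-4 deviated together (correlations of 0.358 to 0.602). The 3 states are therefore not shown to be independent. KO pairs with different numbers had correlations of -0.619 to 0.617, so high values were not particular to the same number. Of the 35 genes, 15 were called in all 3 states, 8 in 2 states, 7 in 1 state and 5 in none.

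**Figure D2:**
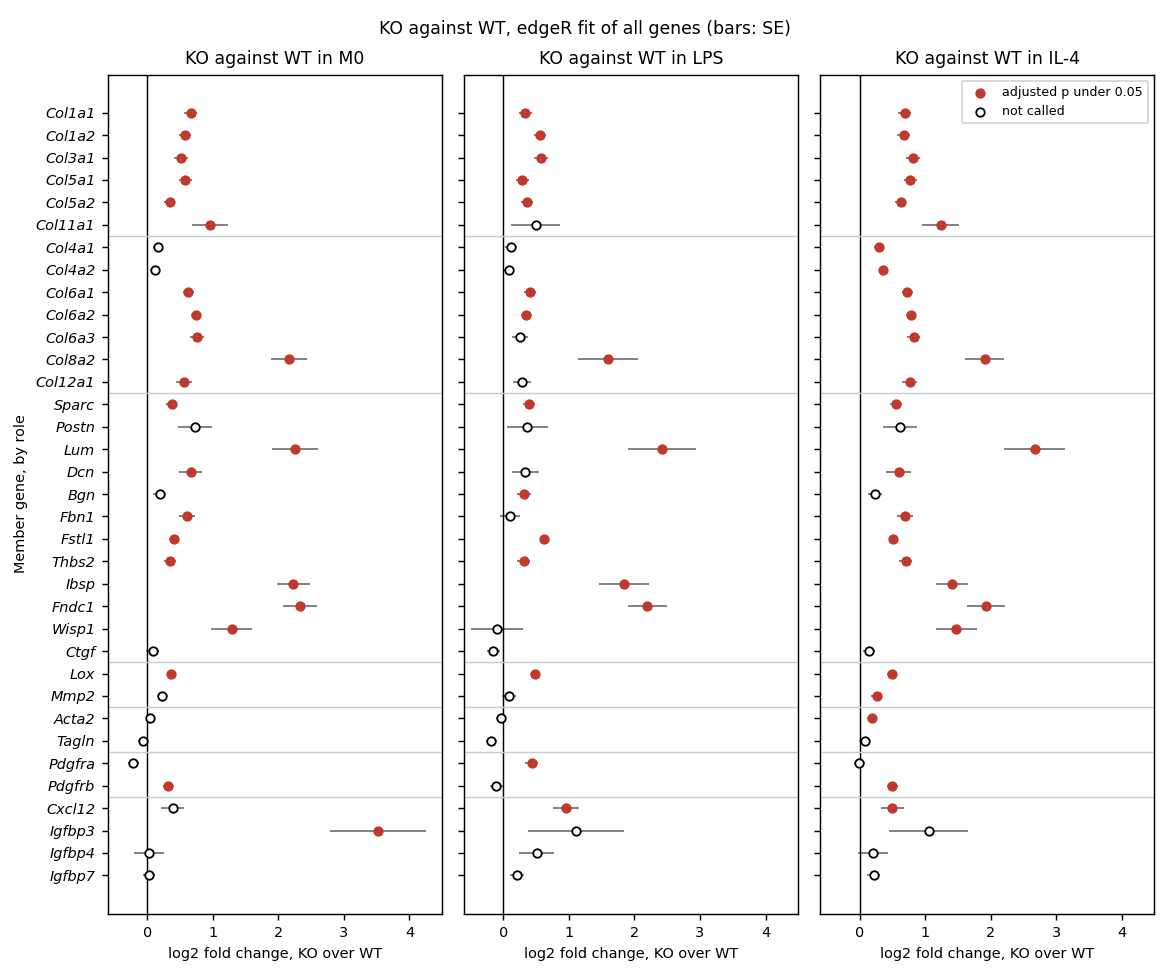
Points are log2 fold changes, KO over WT, of the 35 genes in M0, LPS and IL-4 with their standard errors; filled points passed an adjusted p of 0.05. Every filled point lies to the right of 0, and Col8a2, Lum, Ibsp and Fndc1 are among the genes far to the right in all 3 panels, with Igfbp3 farthest in M0 and Wisp1 to the right of Ibsp in IL-4.

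Among the fibrillar collagens, 6 of 6 rose in KO M0, 5 of 6 in KO LPS and 6 of 6 in KO IL-4. Col1a1 and Col1a2 encode the chains of type I collagen, the main collagen of bone and tendon. Col1a1 was at 7087, 7867, 9569 and 9245 CPM in KO M0, against 5660.1, 5539, 4599 and 5571 CPM in WT M0. With LPS Col1a1 had 8256, 7892, 6608 and 7397 CPM in KO LPS, against 5065, 6109.6, 6500.1 and 6243 CPM in WT LPS. Under IL-4 Col1a1 was at 5401, 5439, 7114 and 5822 CPM in KO IL-4, against 3719, 3703, 3822 and 3483 CPM in WT IL-4. All KO values were above all WT values of the same state. The log2 fold changes of Col1a1 were 0.66 ± 0.10 (adjusted p = 2.38e-05) in M0, 0.33 ± 0.10 (adjusted p = 0.0129) in LPS and 0.69 ± 0.10 (adjusted p = 6.68e-06) in IL-4 (± SE here and below). The LPS call ended without the 3 shallow libraries (0.31, adjusted p = 0.0502) and when KO numbers 5 and 6 were left out (0.24, 0.0776). Col1a2 was at 4759, 5191, 6439.6 and 6066 CPM in KO M0, against 3855, 3794, 3420.5 and 3965 CPM in WT M0. In LPS Col1a2 was at 5834, 5941, 5843 and 6528 CPM in KO LPS, against 3461, 3939, 4534 and 4375 CPM in WT LPS. In IL-4 Col1a2 had 3718, 3617, 4802 and 4494 CPM in KO IL-4, against 2549, 2524, 2737 and 2613 CPM in WT IL-4. The genotypes did not overlap in any state, with log2 fold changes of 0.58 ± 0.096 (adjusted p = 7.29e-05), 0.56 ± 0.098 (adjusted p = 7.87e-05) and 0.67 ± 0.096 (adjusted p = 5.18e-06) in M0, LPS and IL-4. The level of Col1a1 per kilobase was 1.36 ± 0.0171 times that of Col1a2 in KO M0 and 1.28 ± 0.0516 times in WT M0 (SD over 4 libraries each). This ratio was 1.13 ± 0.129 in KO LPS and 1.32 ± 0.0515 in WT LPS, and 1.29 ± 0.085 in KO IL-4 and 1.28 ± 0.0562 in WT IL-4.

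Col3a1 encodes type III collagen, which is abundant in reticular and vascular tissue. Its M0 values were 1764, 1854, 2348 and 2278 CPM in KO M0, against 1433, 1311, 1455 and 1574 CPM in WT M0. Under LPS Col3a1 had 3169.8, 3293, 2870.5 and 3543 CPM in KO LPS, against 1959.8, 1972, 2318 and 2372 CPM in WT LPS. With IL-4 Col3a1 had 1218, 1197, 1666 and 1611 CPM in KO IL-4, against 733, 793, 872 and 848 CPM in WT IL-4. All KO values were above all WT values in each state, by 0.51 ± 0.11 (adjusted p = 0.000915), 0.57 ± 0.11 (adjusted p = 0.000259) and 0.81 ± 0.11 (adjusted p = 2.07e-06) on the log2 scale in M0, LPS and IL-4. Col5a1 and Col5a2 encode chains of type V collagen, which starts and regulates the assembly of type I fibrils. Col5a1 was at 1453, 1649, 2009 and 1898 CPM in KO M0, against 1199, 1160.1, 1123 and 1197 CPM in WT M0. With LPS Col5a1 had 1293, 1294, 1286 and 1347 CPM in KO LPS, against 830.4, 1114, 1166 and 1093 CPM in WT LPS. Under IL-4 Col5a1 was at 883, 928, 1229.9 and 1178 CPM in KO IL-4, against 623, 605, 652 and 590.2 CPM in WT IL-4. The genotypes did not overlap, and the differences were 0.58 ± 0.098 (adjusted p = 9.43e-05), 0.29 ± 0.11 (adjusted p = 0.0366) and 0.77 ± 0.099 (adjusted p = 1.22e-06). The LPS call of Col5a1 ended without the 3 shallow libraries (0.22, adjusted p = 0.169), and without WT LPS 1, WT LPS 4, KO LPS 8 or any single M0 or IL-4 library (0.22 to 0.33, 0.0509 to 0.109). Col5a2, which lies 24614 bases from Col3a1 on chromosome 1, was at 1151, 1191, 1409 and 1374 CPM in KO M0, against 1008, 967, 999 and 1072 CPM in WT M0. In LPS Col5a2 was at 1285, 1352, 1070.5 and 1487 CPM in KO LPS, against 928, 942, 1079 and 1079.8 CPM in WT LPS. In IL-4 Col5a2 had 1037, 1018, 1259 and 1279.8 CPM in KO IL-4, against 731, 720.5, 776 and 749 CPM in WT IL-4. It was higher in KO by 0.34 ± 0.086 (adjusted p = 0.00485), 0.37 ± 0.092 (adjusted p = 0.00321) and 0.63 ± 0.086 (adjusted p = 3.35e-06); in LPS 1 KO value, that of shallow library 7, fell within the WT range. Col11a1 encodes a chain of type XI collagen, the fibril starter of cartilage. It had 78, 88.9, 177 and 157 CPM in KO M0, against 61.3, 68, 57.1 and 71.2 CPM in WT M0. Under LPS Col11a1 had 26.8, 29.1, 23.9 and 57.7 CPM in KO LPS, against 41.3, 10.5, 27.9 and 25.8 CPM in WT LPS. With IL-4 Col11a1 had 66.2, 62.6, 127 and 122 CPM in KO IL-4, against 38.5, 36.3, 46.1 and 39.3 CPM in WT IL-4. In M0 and IL-4 KO libraries 7 and 8 were 2.0 and 1.94 times as high as 5 and 6, which still lay above all WT values. The differences were 0.96 ± 0.28 (adjusted p = 0.02) in M0, 0.49 ± 0.37 (adjusted p = 0.344) in LPS, where the ranges overlapped, and 1.24 ± 0.29 (adjusted p = 0.00239) in IL-4. The M0 call ended when KO M0 7 was left out (0.73, adjusted p = 0.0992), as it did without KO M0 8 (0.82, 0.0753), WT M0 1 (0.92, 0.0528) or WT M0 3 (0.88, 0.0657); without KO numbers 7 and 8 the difference was 0.37 (0.00382).

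Type IV collagen, the network-forming collagen of basement membranes, was called higher in KO in IL-4 alone. Col4a1 and Col4a2 encode its most widespread chains and lie head to head on chromosome 8, with annotated ends that overlap by 22 bases. Their promoter windows, 250 bases before to 50 bases after each start site in RefSeq (GRCm38.p6), share the 78 bases at chr8:11312777-11312854. They are shown because the genes share promoter bases and their differences can be set side by side. Both read 5′ to 3′ on their own strand, Col4a1 from chr8:11312777-11313076 (minus strand) and Col4a2 from chr8:11312555-11312854 (plus strand), with the shared bases in capitals.
Col4a1: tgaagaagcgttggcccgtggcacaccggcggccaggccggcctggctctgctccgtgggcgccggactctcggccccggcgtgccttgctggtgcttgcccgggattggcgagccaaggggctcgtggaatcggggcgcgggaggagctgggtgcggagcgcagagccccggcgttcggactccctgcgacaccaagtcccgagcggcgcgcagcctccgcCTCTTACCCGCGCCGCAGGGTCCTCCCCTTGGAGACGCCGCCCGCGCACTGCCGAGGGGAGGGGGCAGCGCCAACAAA
Col4a2: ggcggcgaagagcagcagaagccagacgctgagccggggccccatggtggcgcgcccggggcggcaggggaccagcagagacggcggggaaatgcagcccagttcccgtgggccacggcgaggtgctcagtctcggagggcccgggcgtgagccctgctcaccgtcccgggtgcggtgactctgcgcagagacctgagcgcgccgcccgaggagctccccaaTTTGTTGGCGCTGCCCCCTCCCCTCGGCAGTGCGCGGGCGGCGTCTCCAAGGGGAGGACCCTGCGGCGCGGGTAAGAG
Col4a1 was at 373 to 435 CPM in KO M0 libraries, against 322 to 386 CPM in WT M0, and Col4a2 at 322 to 361 CPM in KO M0 libraries, against 288 to 334 CPM in WT M0. Col4a1 was at 455 to 532 CPM in KO LPS libraries, against 434 to 458 CPM in WT LPS, and Col4a2 at 389 to 411 CPM in KO LPS libraries, against 304 to 400.2 CPM in WT LPS. These ranges overlapped, and neither gene was called in M0 (0.17 ± 0.077 and 0.11 ± 0.068, adjusted p = 0.118 and 0.244) or in LPS (0.11 ± 0.088 and 0.08 ± 0.078, 0.356 and 0.446). After IL-4 Col4a1 was at 187 to 238 CPM in KO IL-4 libraries, against 149 to 182 CPM in WT IL-4 and Col4a2 at 178 to 209 CPM in KO IL-4 libraries, against 138 to 163 CPM in WT IL-4. Here the genotypes did not overlap and both were called, at 0.30 ± 0.077 (adjusted p = 0.00295) and 0.36 ± 0.068 (adjusted p = 0.000171). With KO numbers 7 and 8 left out Col4a1 was at 0.18 and no longer called (adjusted p = 0.0519). The level of Col4a1 per kilobase was 1.14 ± 0.0499 times that of Col4a2 in KO M0 and 1.10 ± 0.0426 times in WT M0, and stayed between 1.01 and 1.44 times in all 24 libraries.

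Type VI collagen forms beaded filaments around cells and is made of chains encoded by Col6a1, Col6a2 and Col6a3. Col6a1 was at 806, 906, 905 and 849 CPM in KO M0, against 557, 517, 561 and 608 CPM in WT M0. With LPS Col6a1 had 1059, 1071, 801 and 958 CPM in KO LPS, against 645, 622, 818 and 798 CPM in WT LPS. Under IL-4 Col6a1 was at 1311, 1289, 1343 and 1286 CPM in KO IL-4, against 681, 755, 888 and 827 CPM in WT IL-4. KO was above WT without overlap in M0 and IL-4, and the differences were 0.63 ± 0.085 (adjusted p = 5.01e-06) in M0, 0.41 ± 0.093 (adjusted p = 0.0012) in LPS and 0.73 ± 0.085 (adjusted p = 3.44e-07) in IL-4. Col6a2, which lies 85161 bases from Col6a1 on chromosome 10, was at 706, 803, 831 and 798 CPM in KO M0, against 453, 452, 479 and 497 CPM in WT M0. In LPS Col6a2 was at 865, 829, 706 and 756 CPM in KO LPS, against 505, 633, 660.3 and 653 CPM in WT LPS. In IL-4 Col6a2 had 1213, 1254, 1276 and 1217 CPM in KO IL-4, against 617, 705, 787 and 754 CPM in WT IL-4. The genotypes did not overlap in any state, with differences of 0.74 ± 0.076 (adjusted p = 6.38e-08), 0.35 ± 0.084 (adjusted p = 0.00209) and 0.79 ± 0.076 (adjusted p = 1.51e-08). The LPS calls of Col6a1 and Col6a2 ended without KO numbers 5 and 6 (adjusted p = 0.0623 and 0.0736). Col6a3, on chromosome 1, was at 398, 468, 542 and 461 CPM in KO M0, against 298, 253, 246 and 309.6 CPM in WT M0. Under LPS Col6a3 had 212, 235, 179 and 222 CPM in KO LPS, against 149.6, 131, 198 and 191 CPM in WT LPS. With IL-4 Col6a3 had 279.6, 253, 349.8 and 315 CPM in KO IL-4, against 158, 153, 188 and 175 CPM in WT IL-4. It was higher in KO M0 by 0.76 ± 0.10 (adjusted p = 6.48e-06) and in KO IL-4 by 0.83 ± 0.10 (adjusted p = 1.13e-06), without overlap, and was not called in LPS (0.25 ± 0.12, adjusted p = 0.13). The level of Col6a1 per kilobase was 1.06 ± 0.0343 times that of Col6a2 in KO M0 and 1.15 ± 0.0396 times in WT M0.

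Col8a2 encodes a chain of type VIII collagen, known from the basement membrane of the corneal endothelium. Its level was low, and its log2 differences were the largest among the 13 collagen genes in each state. Its level was 7.86, 10.4, 10.5 and 10.0 CPM in KO M0, against 2.56, 3.25, 0.843 and 2.05 CPM in WT M0. With LPS Col8a2 had 2.2, 1.54, 5.98 and 1.75 CPM in KO LPS, against 0, 0, 0.441 and 0.784 CPM in WT LPS. Under IL-4 Col8a2 was at 2.78, 2.58, 4.54 and 3.94 CPM in KO IL-4, against 0.838, 0.602, 0.87 and 1.38 CPM in WT IL-4. The genotypes did not overlap in any state, but in LPS the value of KO 7 is 1 count and those of WT 1 and 2 are 0 counts; the deep LPS libraries averaged 1.83 CPM in KO (n = 3) and 0.613 CPM in WT (n = 2). The differences were 2.16 ± 0.28 (adjusted p = 8.51e-06) in M0, 1.60 ± 0.46 (adjusted p = 0.0101) in LPS and 1.91 ± 0.30 (adjusted p = 4.9e-05) in IL-4. The LPS call ended without WT LPS 3 (1.26, adjusted p = 0.124) and when KO numbers 5 and 6 were left out (1.56, 0.0853). Col12a1 encodes type XII collagen, which binds to the surface of type I fibrils. It was at 701, 850.4, 908 and 823 CPM in KO M0, against 546, 468, 525 and 686 CPM in WT M0. In LPS Col12a1 was at 297, 328, 281 and 312 CPM in KO LPS, against 191, 209, 268 and 271 CPM in WT LPS. In IL-4 Col12a1 had 343, 326, 431 and 417 CPM in KO IL-4, against 206, 187, 269 and 229.6 CPM in WT IL-4. KO was above WT without overlap in all 3 states, and the differences were 0.56 ± 0.12 (adjusted p = 0.00126), 0.28 ± 0.14 (adjusted p = 0.131) and 0.77 ± 0.12 (adjusted p = 2.42e-05), so that LPS did not pass.

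Of the 12 genes of matricellular proteins, proteoglycans and microfibrils, 9 rose in KO M0, 7 in KO LPS and 9 in KO IL-4. Sparc encodes osteonectin, a collagen-binding matricellular protein. Its M0 values were 3091, 3328, 3969 and 3893 CPM in KO M0, against 2802, 2690.4, 2779.9 and 2760.0 CPM in WT M0. Under LPS Sparc had 3649, 3876, 3373 and 3979 CPM in KO LPS, against 2465, 2730.5, 3201 and 2942 CPM in WT LPS. With IL-4 Sparc had 2503, 2511, 3032 and 3159.8 CPM in KO IL-4, against 1834, 1912, 2001 and 1861 CPM in WT IL-4. All KO values were above all WT values of the state, by 0.37 ± 0.087 (adjusted p = 0.00275), 0.39 ± 0.090 (adjusted p = 0.00165) and 0.56 ± 0.088 (adjusted p = 1.86e-05) in M0, LPS and IL-4. Fstl1 encodes a secreted glycoprotein related to both follistatin and SPARC. It had 834, 863, 901 and 869 CPM in KO M0, against 668, 634, 608 and 716 CPM in WT M0. With LPS Fstl1 had 1507, 1588, 1244 and 1435 CPM in KO LPS, against 861, 905, 983 and 987 CPM in WT LPS. Under IL-4 Fstl1 was at 499, 469, 538 and 506 CPM in KO IL-4, against 326, 344, 380.3 and 357 CPM in WT IL-4. The genotypes were again apart in each state, by 0.40 ± 0.069 (adjusted p = 0.000115), 0.63 ± 0.075 (adjusted p = 3.92e-07) and 0.52 ± 0.069 (adjusted p = 2.38e-06). Thbs2 encodes thrombospondin 2, an inhibitor of angiogenesis that regulates fibril assembly. Its level was 1295, 1305, 1629 and 1520.0 CPM in KO M0, against 1120.2, 1039.5, 1118 and 1230.2 CPM in WT M0. In LPS Thbs2 was at 1331, 1421, 1322 and 1382 CPM in KO LPS, against 820.0, 1161, 1208 and 1150.5 CPM in WT LPS. In IL-4 Thbs2 had 1080.2, 1005, 1266 and 1226 CPM in KO IL-4, against 642, 659.7, 803 and 705 CPM in WT IL-4. KO was above WT without overlap, by 0.35 ± 0.095 (adjusted p = 0.00818), 0.31 ± 0.10 (adjusted p = 0.0216) and 0.70 ± 0.095 (adjusted p = 2.56e-06). The LPS call of Thbs2 ended without WT LPS 1 (0.23, adjusted p = 0.0708), and the M0 call ended without KO M0 7 (0.27, 0.0518).

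Ibsp encodes bone sialoprotein, an acidic glycoprotein of mineralizing matrix that is known from osteoblasts and from osteoclasts, which arise from the macrophage lineage. It was at 53.1, 80.8, 66.3 and 46.9 CPM in KO M0, against 17.7, 18.7, 6.9 and 9.66 CPM in WT M0. Under LPS Ibsp had 16, 14.6, 23.9 and 9.84 CPM in KO LPS, against 0, 0, 3.75 and 3.89 CPM in WT LPS. With IL-4 Ibsp had 144, 108, 148 and 132 CPM in KO IL-4, against 43.8, 54.4, 54.4 and 47.4 CPM in WT IL-4. The genotypes did not overlap in any state, and the IL-4 libraries were the highest of each genotype. WT LPS 1 and 2 had 0 counts and KO LPS 7 had 4; the deep LPS libraries averaged 13.5 CPM in KO (n = 3) and 3.82 CPM in WT (n = 2). The differences were 2.23 ± 0.25 (adjusted p = 4.48e-06), 1.84 ± 0.38 (adjusted p = 0.00113) and 1.41 ± 0.24 (adjusted p = 0.000167) in M0, LPS and IL-4. The LPS call was lost without KO numbers 5 and 6 (1.40, adjusted p = 0.0625). The window around its start site (RefSeq, GRCm38.p6, chr5:104299037-104299336, plus strand) is shown because Ibsp differed with genotype in each state and with both stimuli. A TATA motif read on the opposite strand, with its first base at -28 from the start site, and a CCAAT motif on the opposite strand at -54 are in capitals. In the rat gene an inverted TATA box and an inverted CCAAT box at such places are known as parts of the promoter.
Ibsp: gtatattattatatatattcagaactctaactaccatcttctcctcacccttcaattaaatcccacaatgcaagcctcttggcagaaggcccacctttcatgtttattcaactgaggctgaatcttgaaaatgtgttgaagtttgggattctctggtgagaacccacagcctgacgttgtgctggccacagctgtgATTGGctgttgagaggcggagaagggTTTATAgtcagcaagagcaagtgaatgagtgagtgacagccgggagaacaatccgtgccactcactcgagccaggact
RefSeq windows were found for 24 of the 35 genes. The TATA motif (TATAAA, either strand) stood in 23.1% of their windows and in 13.6% of all 32851 windows, and the CCAAT motif (CCAAT, either strand) in 26.9% of theirs and 37.4% of all. The GC box (GGGCGG, either strand) stood in 53.8% of their windows and 35.7% of all. A match is a description of the letters only.

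Fndc1 encodes a fibronectin type III domain protein. Its M0 values were 6.2, 8.08, 7.76 and 6.69 CPM in KO M0, against 1.91, 1.56, 0.95 and 1.31 CPM in WT M0. With LPS Fndc1 had 45.1, 50.6, 5.98 and 22.6 CPM in KO LPS, against 10.3, 0, 7.24 and 9.77 CPM in WT LPS. Under IL-4 Fndc1 was at 3.18, 3.08, 2.13 and 2.91 CPM in KO IL-4, against 0.567, 0.854, 0.973 and 0.542 CPM in WT IL-4. Its genotypes were apart in M0 and IL-4 and overlapped in LPS through KO LPS 7, whose value is 1 count; the deep LPS libraries averaged 39.5 CPM in KO (n = 3) and 8.51 CPM in WT (n = 2). The differences were 2.33 ± 0.25 (adjusted p = 1.45e-06), 2.20 ± 0.30 (adjusted p = 1.26e-05) and 1.93 ± 0.29 (adjusted p = 3.35e-05); with KO numbers 5 and 6 left out the LPS difference was 1.40. Lum and Dcn encode lumican and decorin, small leucine-rich proteoglycans that bind collagen fibrils, and lie 46984 bases apart on chromosome 10. Lum was near the lower limit of detection, at 0.596 to 1.15 CPM in KO M0 libraries, against 0.0922 to 0.304 CPM in WT M0, and 0.225 to 0.383 CPM in KO IL-4 libraries, against 0.0285 to 0.07 CPM in WT IL-4. In LPS it had 24 to 73 counts in the 3 deep KO libraries and 8 to 10 in the 2 deep WT libraries, and 0 in each shallow library. Lum was called in each state, by 2.25 ± 0.35 (adjusted p = 3.55e-05), 2.42 ± 0.51 (adjusted p = 0.000631) and 2.67 ± 0.46 (adjusted p = 6.17e-05). The LPS call of Lum ended without KO numbers 5 and 6 (1.38, adjusted p = 0.0862). Dcn was at 3.27, 3.93, 3.42 and 3.69 CPM in KO M0, against 2.36, 2.82, 1.24 and 2.66 CPM in WT M0. In LPS Dcn was at 14.6, 16.4, 23.9 and 11.3 CPM in KO LPS, against 5.16, 10.5, 9.8 and 13 CPM in WT LPS. In IL-4 Dcn had 1.61, 1.93, 2.24 and 2.08 CPM in KO IL-4, against 1.12, 1.53, 1.36 and 1.17 CPM in WT IL-4. Dcn was called in M0 (0.66 ± 0.18, adjusted p = 0.00718) and IL-4 (0.60 ± 0.19, adjusted p = 0.015), where its genotypes did not overlap, and not in LPS (0.34 ± 0.21, adjusted p = 0.228). The IL-4 call of Dcn ended with DESeq2 (adjusted p = 0.0544) and when KO numbers 7 and 8 were left out (0.44, 0.166), or WT IL-4 1 (0.53, 0.0543) or KO IL-4 7 (0.52, 0.0582).

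Fbn1 encodes fibrillin 1, the main protein of microfibrils. It had 322, 364, 448 and 427 CPM in KO M0, against 263, 227, 243 and 291 CPM in WT M0. Under LPS Fbn1 had 289, 319, 221 and 288 CPM in KO LPS, against 124, 309, 291 and 286 CPM in WT LPS. With IL-4 Fbn1 had 371, 356, 457 and 416 CPM in KO IL-4, against 226, 225, 279.6 and 258 CPM in WT IL-4. KO was above WT without overlap in M0 (0.61 ± 0.12, adjusted p = 0.00112) and IL-4 (0.69 ± 0.12, adjusted p = 0.000161) and not called in LPS (0.10 ± 0.15, adjusted p = 0.645). Wisp1, also known as Ccn4, encodes a matricellular protein induced by Wnt signalling. Its level was 47.4, 50.0, 117 and 106 CPM in KO M0, against 33.9, 33.5, 28.8 and 34.9 CPM in WT M0. With LPS Wisp1 had 24.9, 29.7, 47.8 and 50.9 CPM in KO LPS, against 15.5, 73.2, 41.9 and 33.2 CPM in WT LPS. Under IL-4 Wisp1 was at 32.5, 31, 72 and 61.4 CPM in KO IL-4, against 17, 16.2, 18.8 and 18.7 CPM in WT IL-4. KO libraries 7 and 8 were 2.29 times as high as 5 and 6 in M0 and 2.1 times in IL-4, and all 4 lay above WT; without 7 and 8 the KO against WT difference was 0.56 in M0 and 0.84 in IL-4, called both times. The differences were 1.29 ± 0.31 (adjusted p = 0.00567) in M0 and 1.48 ± 0.32 (adjusted p = 0.00135) in IL-4, and -0.10 ± 0.40 (adjusted p = 0.886) in LPS, where the groups overlapped. Bgn, the proteoglycan biglycan, was at 1016 to 1092 CPM in KO M0 libraries, against 857 to 984 CPM in WT M0, and was called only in LPS (0.31 ± 0.11, adjusted p = 0.0306). After LPS Bgn was at 861 to 1435 CPM in KO LPS libraries, against 841 to 1102 CPM in WT LPS, which overlap. With KO numbers 5 and 6 left out the difference was 0.018 (adjusted p = 0.928); the call also ended without KO LPS 5 or 6 (0.25 and 0.24, 0.116 and 0.135) or WT LPS 1 or 2 (0.27 and 0.28, 0.0716 and 0.0664). Postn, which encodes periostin, was at 243 to 539.6 CPM in KO M0 libraries, against 195 to 251 CPM in WT M0, and Ctgf, also known as Ccn2 and a target of TGF-beta and YAP, at 1237 to 1439 CPM in KO M0 libraries, against 1162 to 1367 CPM in WT M0. Neither was called in any state. The differences of Postn were 0.73 ± 0.26 (adjusted p = 0.0539) in M0, 0.36 ± 0.31 (adjusted p = 0.407) in LPS and 0.62 ± 0.26 (adjusted p = 0.0736) in IL-4, and those of Ctgf 0.08 ± 0.092 (adjusted p = 0.578), -0.15 ± 0.10 (adjusted p = 0.273) and 0.15 ± 0.092 (adjusted p = 0.221). The KO M0 values of Postn were 243 and 243 CPM in libraries 5 and 6 and 539.6 and 477 CPM in libraries 7 and 8.

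Of the 2 enzymes, Lox encodes lysyl oxidase, which cross-links collagen and elastin. It was at 2394, 2539, 2398 and 2291 CPM in KO M0, against 1879, 1810.0, 1745 and 2020.1 CPM in WT M0. In LPS Lox was at 2432, 2531, 2207 and 2343 CPM in KO LPS, against 1501, 1721, 1802 and 1774 CPM in WT LPS. In IL-4 Lox had 3194, 3049.9, 3577 and 3251 CPM in KO IL-4, against 2249.5, 2254, 2455 and 2356 CPM in WT IL-4. All KO values were above all WT values of the state, by 0.37 ± 0.067 (adjusted p = 0.000233), 0.48 ± 0.071 (adjusted p = 8.22e-06) and 0.49 ± 0.067 (adjusted p = 3.41e-06). Mmp2 encodes gelatinase A, which degrades denatured and type IV collagen. It was at 232 to 273 CPM in KO M0 libraries, against 198 to 225 CPM in WT M0, and at 182 to 220.0 CPM in KO IL-4 libraries, against 155 to 171 CPM in WT IL-4. Mmp2 was called in IL-4 (0.26 ± 0.085, adjusted p = 0.0164) and not in M0 (0.23 ± 0.085, adjusted p = 0.0529) or LPS (0.09 ± 0.10, adjusted p = 0.56); the IL-4 call ended without KO IL-4 7 (0.19, adjusted p = 0.0818).

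Of the 2 contractile genes, 1 was called, in IL-4 alone. Acta2 encodes smooth muscle alpha-actin, a marker of myofibroblasts and smooth muscle, and Tagln the actin-binding protein SM22. Acta2 was at 2679, 2672, 2995 and 3090.5 CPM in KO M0, against 2564, 2964, 2778 and 2772 CPM in WT M0. Under LPS Acta2 had 1613, 1592, 1459 and 1675 CPM in KO LPS, against 1619, 1475, 1704 and 1715 CPM in WT LPS. With IL-4 Acta2 had 1647, 1622, 1912 and 1925 CPM in KO IL-4, against 1511, 1656, 1505 and 1557 CPM in WT IL-4. The ranges overlapped in every state, and the differences of Acta2 were 0.05 ± 0.072 (adjusted p = 0.694) in M0 (95% interval -0.09 to 0.19), -0.04 ± 0.076 (adjusted p = 0.727) in LPS and 0.19 ± 0.072 (adjusted p = 0.0399) in IL-4. The IL-4 call was lost without KO numbers 7 and 8 (0.072, adjusted p = 0.436) and without 1 of WT IL-4 1, 3 or 4 or of KO IL-4 7 or 8 (0.14 to 0.18, 0.0644 to 0.125), and also without 1 of the deep LPS libraries (0.18 each, 0.0532 to 0.0611). Tagln was at 1410.1, 1442, 1461 and 1611 CPM in KO M0, against 1480.4, 1732, 1539 and 1447 CPM in WT M0. With LPS Tagln had 839, 822, 676 and 812 CPM in KO LPS, against 990.2, 884, 894 and 894 CPM in WT LPS. Under IL-4 Tagln was at 830.0, 851, 967 and 1086 CPM in KO IL-4, against 888, 987, 826 and 831 CPM in WT IL-4. Tagln was not called in any state, at -0.07 ± 0.081 (adjusted p = 0.612) in M0 (95% interval -0.22 to 0.09), -0.18 ± 0.089 (adjusted p = 0.123) in LPS and 0.08 ± 0.081 (adjusted p = 0.461) in IL-4; in LPS all 4 KO values lay below all 4 WT values.

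The receptors Pdgfra and Pdgfrb encode the PDGF receptors of mesenchymal cells. Pdgfrb was at 163, 172, 219 and 203 CPM in KO M0, against 160.4, 144, 144 and 156 CPM in WT M0. In LPS Pdgfrb was at 200.2, 209.5, 161 and 199 CPM in KO LPS, against 186, 173, 229.8 and 218 CPM in WT LPS. In IL-4 Pdgfrb had 94.3, 94.1, 119.9 and 103 CPM in KO IL-4, against 72.4, 67.5, 80.1 and 71.8 CPM in WT IL-4. It was higher in KO without overlap in M0 (0.32 ± 0.084, adjusted p = 0.00623) and IL-4 (0.50 ± 0.085, adjusted p = 5.31e-05) and not called in LPS (-0.11 ± 0.10, adjusted p = 0.452). The M0 call of Pdgfrb ended without KO numbers 7 and 8 (0.14, adjusted p = 0.130) and without KO M0 7 (0.23, 0.0528). Pdgfra was at 35.7 to 44.4 CPM in KO M0 libraries, against 43.3 to 48.2 CPM in WT M0, at 77.7 to 111 CPM in KO LPS libraries, against 31.4 to 84.2 CPM in WT LPS, and at 53.1 to 65.5 CPM in KO IL-4 libraries, against 55.9 to 62.2 CPM in WT IL-4. It was called in LPS (0.43 ± 0.10, adjusted p = 0.00199) and not in M0 (-0.22 ± 0.082, adjusted p = 0.0597) or IL-4, where its difference was -0.0020 ± 0.082 (adjusted p = 0.99).

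Among the secreted factors, Cxcl12 encodes the chemokine by which marrow stromal cells retain haematopoietic cells. Its M0 values were 930.2, 1077, 626 and 647 CPM in KO M0, against 598, 558, 649 and 701 CPM in WT M0. Under LPS Cxcl12 had 1228, 1296, 729.6 and 935 CPM in KO LPS, against 614, 429, 537 and 609.7 CPM in WT LPS. With IL-4 Cxcl12 had 432, 388, 337 and 346 CPM in KO IL-4, against 207, 245, 320.2 and 291 CPM in WT IL-4. In M0, KO libraries 7 and 8 lay within the WT range and 5 and 6 above it, and the difference was 0.39 ± 0.18 (adjusted p = 0.125). In LPS and IL-4 the genotypes did not overlap, with differences of 0.96 ± 0.20 (adjusted p = 0.0009) and 0.50 ± 0.18 (adjusted p = 0.0328); the IL-4 call ended without KO IL-4 5 or 6 (0.42 and 0.48, adjusted p = 0.082 and 0.0556) or WT IL-4 1 or 2 (0.39 and 0.46, 0.0987 and 0.0775). Igfbp3, Igfbp4 and Igfbp7 encode insulin-like growth factor binding proteins or, for Igfbp7, a low-affinity relative of them. Igfbp3 was at 1.01, 1.73, 16.1 and 12.8 CPM in KO M0, against 0.517, 0.955, 0.694 and 0.565 CPM in WT M0. All KO values were above all WT values, but KO libraries 7 and 8 were 10.5 times as high as 5 and 6. The M0 difference of 3.52 ± 0.74 (adjusted p = 0.00202) was 1.01 without KO numbers 7 and 8 and 4.38 without 5 and 6, and was called both times. In LPS its difference was 1.11 ± 0.73 (adjusted p = 0.27) and in IL-4 1.06 ± 0.60 (adjusted p = 0.185). Igfbp4 was at 584 to 1114 CPM in KO M0 libraries, against 780.3 to 874 CPM in WT M0, with KO libraries 7 and 8 at 584 and 609 CPM and 5 and 6 at 1069.8 and 1114 CPM, on either side of the WT range. Igfbp7 was at 316 to 431 CPM in KO M0 libraries, against 359.7 to 389 CPM in WT M0. Neither was called in any state. The differences of Igfbp4 were 0.03 ± 0.23 (adjusted p = 0.944) in M0, 0.51 ± 0.27 (adjusted p = 0.17) in LPS and 0.21 ± 0.23 (adjusted p = 0.513) in IL-4, and those of Igfbp7 0.02 ± 0.092 (adjusted p = 0.894), 0.21 ± 0.11 (adjusted p = 0.132) and 0.21 ± 0.092 (adjusted p = 0.0705).

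**Figure D3:**
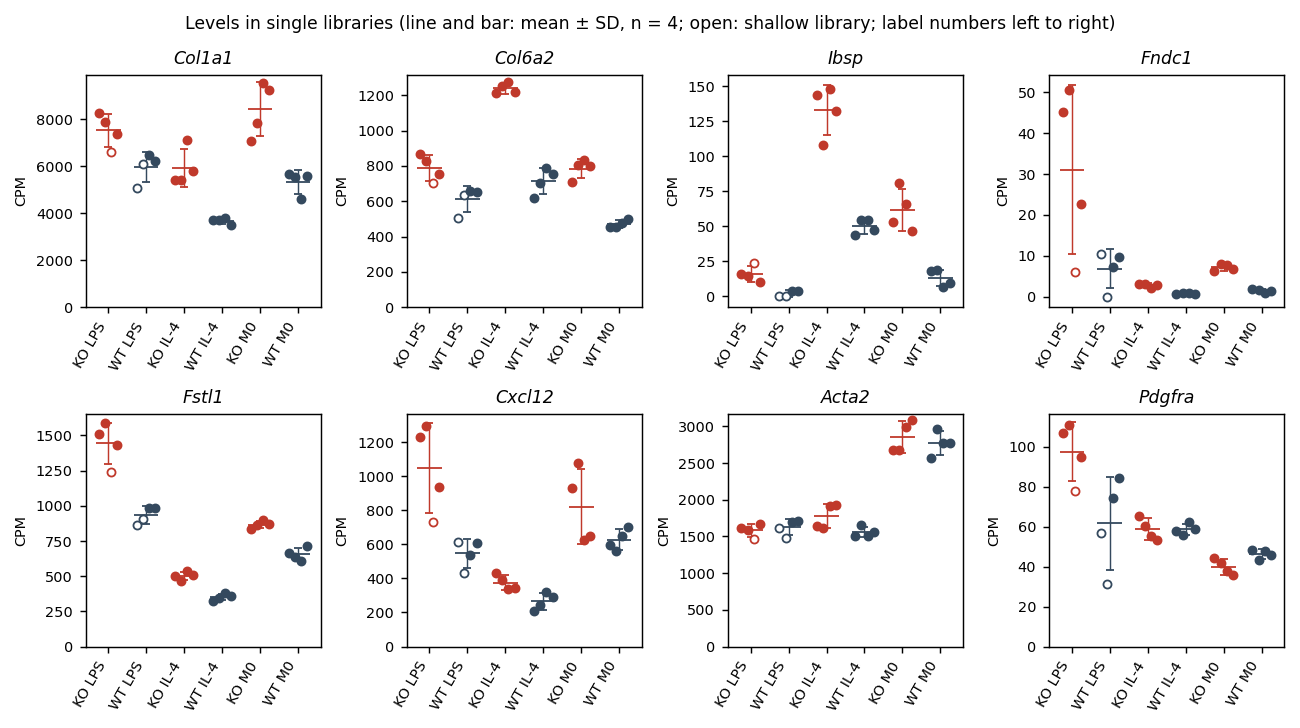
Each point is the CPM of 1 library of Col1a1, Col6a2, Ibsp, Fndc1, Fstl1, Cxcl12, Acta2 or Pdgfra, with KO in red and WT in blue, label numbers from left to right, and open points for the 3 shallow libraries; lines and bars are mean ± SD (n = 4). Ibsp is highest after IL-4, Fndc1 and Fstl1 after LPS, Acta2 in M0, and Cxcl12 splits into high and low KO M0 libraries.

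The KO libraries differed among themselves by label number in M0 and IL-4. The counts of 2 libraries were compared over genes by chi-square per degree of freedom, where counting error alone gives about 1. In KO M0 it was 9.09 between 5 and 6 and 8.51 between 7 and 8, and 47.0 to 63.8 between the pairs. In KO IL-4 it was 15.7 and 28.0 within these pairs, and 49.1 to 74.8 between them. WT libraries gave 12.1 to 32.2 in M0 and 11.2 to 32.9 in IL-4. KO libraries 7 and 8 were both above 5 and 6 in both states for 19 of the 35 genes, while 15.4% of all genes tested showed this. These were Col1a1, Col1a2, Col3a1, Col5a1, Col5a2, Col11a1, Col4a1, Col4a2, Sparc, Postn, Fbn1, Fstl1, Thbs2, Wisp1, Ctgf, Acta2, Tagln, Pdgfrb and Igfbp3. The opposite held for Pdgfra, Cxcl12, Igfbp4 and Igfbp7, which are 4 of the 35, against 16.3% of all genes. In WT, libraries 3 and 4 were above 1 and 2 in both states for 4 of the genes (Col3a1, Col6a1, Col6a2 and Cxcl12), against 4.63% of all genes, and below for 1, Lum, against 5.03%. The summed CPM of the macrophage identity markers was 12209.9 and 12790.3 in KO M0 7 and 8 and 15698 and 14683 in KO M0 5 and 6. The summed CPM of the fibroblast markers was 679 and 657 in 7 and 8 and 571 and 563 in 5 and 6, and that of the marrow stromal and adipocyte markers 1036 and 1107 in 7 and 8 and 1262 and 1388 in 5 and 6. Most of the marrow stromal and adipocyte sum came from Cebpa, Lpl and Hp, whose group means are given with the cell type markers below. The labels give these numbers no meaning, and their part in the KO against WT differences was not tested; counts without either pair of numbers stand in the closing section.

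**Figure D4:**
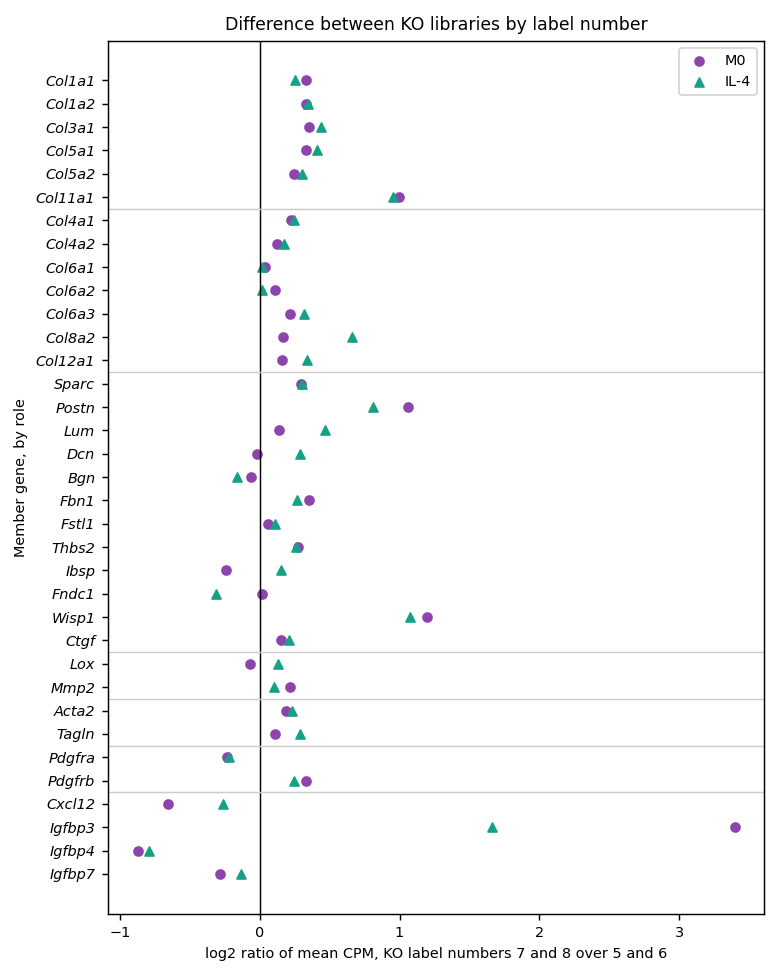
The log2 ratio of mean CPM of KO libraries 7 and 8 over 5 and 6 is plotted for each gene in M0 (circles) and IL-4 (triangles). Igfbp3 lies farthest to the right, Igfbp4 farthest to the left, and Wisp1, Postn and Col11a1 lie near or above 0.8 in both states.

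Genes outside the 35 that act with them were counted from lists of matrix genes, chosen with earlier results of these data known. Over all genes, 11.6% rose and 10.4% fell in KO M0, 16.1% and 14.5% in KO LPS, and 17.7% and 18.1% in KO IL-4. Of 43 further matrix protein genes tested, 20 rose and 1 fell in KO M0, 12 rose and 3 fell in KO LPS, and 27 rose and 0 fell in KO IL-4. Examples are Col16a1, of type XVI collagen, with a log2 difference of 0.37 ± 0.051 in M0 (adjusted p = 5.87e-06), Col8a1, the partner chain of Col8a2, at 335 CPM in KO M0 and 223 CPM in WT M0 (0.59 ± 0.082, 7.09e-06), and Lamb2, a laminin chain (0.46 ± 0.063, 5.87e-06). Of 29 genes of collagen-modifying and matrix-processing enzymes, 11 rose and 3 fell in KO M0, 11 rose and 1 fell in KO LPS, and 20 rose and 2 fell in KO IL-4. Serpinh1, the collagen chaperone HSP47, was higher by 0.37 ± 0.075 in M0 (adjusted p = 0.000793), and Bmp1, which removes the C-propeptide of procollagen, by 0.45 ± 0.083 (0.000233). Loxl3, a lysyl oxidase relative, fell in KO M0 (-0.35 ± 0.073, adjusted p = 0.000868).

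Markers of cell types that a marrow culture could hold were measured beside these genes, from lists chosen in the same way. Their counts stand beside the same shares of all genes, in KO M0 11.6% higher and 10.4% lower. Fibroblast markers gave 3 higher and 2 lower of 16 in KO M0, 2 and 1 in KO LPS, and 5 and 0 in KO IL-4, with a summed level of 563 to 679 CPM in KO M0 and 511 to 548 CPM in WT M0, 755 to 891 CPM in KO LPS and 547 to 717 CPM in WT LPS, and 375 to 454 CPM in KO IL-4 and 328 to 336 CPM in WT IL-4. In M0 Cdh11 was higher (0.25 ± 0.058, adjusted p = 0.00215), Twist2 lower (-0.47 ± 0.12, 0.00567), and Tcf21 was at 0 in every group, with Dpt and Clec3b averaging 0.0578 and 0.0733 CPM in KO M0 and 0.0614 and 0.0267 CPM in WT M0. The highest M0 levels of this list were those of Cdh11, Prrx1 and Cdh2. They averaged 171, 152 and 104 CPM in KO M0 and 143, 126 and 91.8 CPM in WT M0. Osteoblast and cartilage markers gave 7 higher and 0 lower of 11 in KO M0, 1 and 0 in KO LPS, and 5 and 0 in KO IL-4, with 364 to 459 CPM in KO M0 and 195 to 268 CPM in WT M0, 189 to 313 CPM in KO LPS and 94.2 to 186 CPM in WT LPS, and 191 to 230.3 CPM in KO IL-4 and 113 to 128 CPM in WT IL-4. Among them Alpl, alkaline phosphatase, was higher by 0.96 ± 0.15 in M0 (adjusted p = 7.44e-05), and the osteoblast transcription factors Runx2 and Sp7 by 0.54 ± 0.087 and 0.52 ± 0.14 (5.77e-05 and 0.0103). Alpl made up most of the M0 sums of this list, at 299 CPM in KO M0 and 153 CPM in WT M0. Bglap, Bglap2, Dmp1, Phex and Ifitm5 averaged 0.186 to 0.632 CPM in KO M0, and Mepe, Sost and Acan were at 0 there. Marrow stromal and adipocyte markers gave 2 higher and 1 lower of 12 in KO M0, 4 and 1 in KO LPS, and 4 and 0 in KO IL-4, with 1036 to 1388 CPM in KO M0 and 1158 to 1214 CPM in WT M0, 1866 to 2306 CPM in KO LPS and 1418 to 1649.6 CPM in WT LPS, and 1790.3 to 2054 CPM in KO IL-4 and 1916 to 2368 CPM in WT IL-4. Most of this sum came from Cebpa, Lpl and Hp, at 469, 401 and 161 CPM in KO M0 and 500, 390 and 127 CPM in WT M0. Hp averaged 1185 CPM in KO LPS and 764 CPM in WT LPS, and Lpl 1205 CPM in KO IL-4 and 1404 CPM in WT IL-4. Cxcl12 is not in that list. Its genes called higher in KO M0 were Ebf3, a transcription factor of marrow stromal cells, at 17.9 CPM in KO M0 and 13.3 CPM in WT M0 (0.42 ± 0.10, adjusted p = 0.00305), and Lepr, the leptin receptor, at 2.71 CPM in KO M0 and 1.74 CPM in WT M0 (0.64 ± 0.21, 0.0281). Grem1, a BMP antagonist of marrow stroma, fell in KO M0 (-0.83 ± 0.16, adjusted p = 0.00104). Pericyte and smooth muscle markers gave 3 higher and 1 lower of 14 in KO M0, 0 and 4 in KO LPS, and 7 and 1 in KO IL-4, at 2921 to 3232 CPM in KO M0 and 2783 to 2970.3 CPM in WT M0, 1393 to 1585 CPM in KO LPS and 1485 to 1512 CPM in WT LPS, and 1855 to 2181 CPM in KO IL-4 and 1711 to 1765 CPM in WT IL-4. Most of the M0 sums came from Tpm1, Cald1, Actg2, Myl9 and Tpm2, at 451 to 835 CPM in KO M0 and 451 to 757 CPM in WT M0. Rgs5, Kcnj8, Abcc9, Cspg4 and Myh11 averaged 0.691 to 3.48 CPM in KO M0 and 0.162 to 4.26 CPM in WT M0. Endothelial markers gave 5 higher and 0 lower of 12 in KO M0, 3 and 0 in KO LPS, and 4 and 1 in KO IL-4, at 91.4 to 153 CPM in KO M0 and 81.4 to 86.3 CPM in WT M0, 228 to 287 CPM in KO LPS and 159.9 to 277 CPM in WT LPS, and 120.2 to 143 CPM in KO IL-4 and 95.5 to 111 CPM in WT IL-4. Vwf, von Willebrand factor, averaged 20.4 CPM in KO M0 and 9.38 CPM in WT M0 (1.12 ± 0.10, adjusted p = 1.32e-08). Eng, the highest gene of this list in M0, went the other way, at 42.5 CPM in KO M0 and 51.8 CPM in WT M0. It averaged 154 CPM in KO LPS and 196 CPM in WT LPS, and 40.5 CPM in KO IL-4 and 56.4 CPM in WT IL-4. Every other gene of the list averaged higher in KO in each state. Neutrophil and precursor markers gave 3 higher and 0 lower of 9 in KO M0, 0 and 1 in KO LPS, and 1 and 0 in KO IL-4, at 16.8 to 33.7 CPM in KO M0 and 19.8 to 30.6 CPM in WT M0, 30.3 to 71.8 CPM in KO LPS and 36.1 to 63.7 CPM in WT LPS, and 10.3 to 29.0 CPM in KO IL-4 and 16.6 to 23.7 CPM in WT IL-4.

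Beside the shares of all genes given above, macrophage identity markers gave 0 higher and 5 lower of 15 in KO M0, 5 and 7 in KO LPS, and 2 and 3 in KO IL-4. Their summed level was 12209.9 to 15698 CPM in KO M0 and 17292 to 19384 CPM in WT M0, 13688 to 17465 CPM in KO LPS and 19924 to 20956 CPM in WT LPS, and 10113 to 11772 CPM in KO IL-4 and 10644 to 12035 CPM in WT IL-4. Lyz2, which makes up the largest share of that sum, fell in KO M0 (-0.87 ± 0.073, adjusted p = 1.37e-09), while Cd68 averaged 659.7 CPM in KO M0 and 590.2 CPM in WT M0. Lyz2 averaged 5086 CPM in KO M0 and 9307 CPM in WT M0, and 3700 CPM in KO LPS and 8314 CPM in WT LPS. Most of the gap between the KO and WT sums in M0 and in LPS came from Lyz2. The part of these marker levels in the differences of the 35 genes was not tested.

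The second comparison asks how the genes respond to LPS, the bacterial ligand of TLR4. In KO, 10 rose and 12 fell after LPS, while 31.2% of all genes rose and 35.9% fell. In WT, 11 rose and 9 fell, against 29.3% and 28.2% of all genes. All 4 LPS libraries were above all 4 M0 libraries for 7 of the genes in KO and 7 in WT, against 19.2% and 15.4% of all genes, and below them for 11 in KO and 9 in WT, against 28.5% and 23.5%. The median log2 fold change of the 35 was -0.010 in KO and 0.089 in WT, beside -0.067 and -0.014 over all genes. The genes that rose most in KO were Fndc1 (2.43 ± 0.24, adjusted p = 8.74e-09), Igfbp3 (2.28 ± 0.61, adjusted p = 0.00286) and Dcn (1.99 ± 0.18, adjusted p = 1.01e-10). In WT they rose by 2.56 ± 0.29 (adjusted p = 1.25e-07), 4.69 ± 0.79 (adjusted p = 4.53e-05) and 2.32 ± 0.20 (adjusted p = 5.51e-11). Without KO numbers 5 and 6 the response of Fndc1 in KO was 1.66, and that of Igfbp3 was 1.59, against 4.71 without 7 and 8. Igfbp3 was at 35.6, 36, 29.9 and 42.4 CPM in KO LPS, against 20.6, 0, 17.8 and 17.7 CPM in WT LPS, beside 1.01 to 16.1 CPM in KO M0 and 0.517 to 0.955 CPM in WT M0. Fstl1 rose by 0.75 ± 0.071 (adjusted p = 1.74e-10) in KO and 0.53 ± 0.073 (adjusted p = 4.03e-07) in WT, and Col3a1 by 0.65 ± 0.11 (adjusted p = 5.77e-06) and 0.59 ± 0.11 (adjusted p = 3.45e-05).

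The genes that fell after LPS in both genotypes were Col11a1, Col6a3, Col8a2, Col12a1, Ibsp, Ctgf, Acta2, Tagln and Igfbp4. The log2 fold change of Col12a1 was -1.41 ± 0.13 (adjusted p = 3.6e-10) in KO and -1.13 ± 0.13 (adjusted p = 8.6e-08) in WT. That of Col8a2 was -2.39 ± 0.32 (adjusted p = 7.92e-07) in KO and -1.83 ± 0.43 (adjusted p = 0.00096) in WT, and that of Ibsp -2.19 ± 0.28 (adjusted p = 1.12e-06) in KO and -1.80 ± 0.36 (adjusted p = 0.000302) in WT. Acta2 changed by -0.84 ± 0.074 (adjusted p = 4.27e-11) in KO and -0.76 ± 0.075 (adjusted p = 8.03e-10) in WT, and Tagln by -0.88 ± 0.084 (adjusted p = 2.55e-10) in KO and -0.77 ± 0.087 (adjusted p = 1.08e-08) in WT, without overlap between LPS and M0 libraries in either genotype. Col1a1, Col1a2, Sparc, Thbs2 and Lox were called in neither genotype. The rises of Col4a1 (0.27 ± 0.080 in KO), Col4a2 (0.22 ± 0.071) and Col6a1 (0.20 ± 0.087) are near in size to the shift of all genes by up to -0.166 in KO that came with another scaling library, and their calls ended in every fit without 1 M0 or IL-4 library (0.078 to 0.15, 0.029 to 0.082 and 0.017 to 0.071). In WT the rises of Col4a1 (0.32 ± 0.085) and Col4a2 (0.24 ± 0.075) were lost without WT M0 2 (0.15 and 0.074, adjusted p = 0.143 and 0.401). That of Col4a1 was also lost without WT M0 3 (0.19, 0.0743), and that of Col4a2 with DESeq2 (0.17, 0.0614), without WT LPS 3 or 4 (0.21 and 0.19, 0.0602 and 0.0819) and without any other M0 or IL-4 library (0.12 to 0.14). The rise of Igfbp7 in KO (0.40 ± 0.096) was lost without KO M0 7 (0.17, adjusted p = 0.0883). Col5a1 (-0.42 ± 0.10, adjusted p = 0.000541), Fbn1 (-0.41 ± 0.13, adjusted p = 0.00775) and Wisp1 (-1.18 ± 0.34, adjusted p = 0.00488) fell in KO, and in WT they were not called (-0.13 ± 0.10, 0.09 ± 0.14 and 0.21 ± 0.37); the difference between the responses was not called for these 3 genes (adjusted p = 0.204, 0.0893 and 0.0807). With KO numbers 7 and 8 left out Fbn1 was at -0.17 in KO and no longer called (adjusted p = 0.312).

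The third comparison asks the same for IL-4, which drives alternative macrophage activation. In KO, 24 of the genes fell after IL-4 and 5 rose, while 25.0% of all genes fell and 26.0% rose. In WT, 27 fell and 6 rose, against 29.1% and 30.8% of all genes. All 4 IL-4 libraries were below all 4 M0 libraries for 21 of the genes in KO and 24 in WT, against 21.6% and 27.7% of all genes. The median log2 fold change was -0.57 in KO and -0.77 in WT, beside -0.015 and -0.013 over all genes. The basement membrane collagens with the shared promoter bases fell, with log2 fold changes of -0.95 ± 0.077 (adjusted p = 3.78e-11) in KO and -1.08 ± 0.078 (adjusted p = 1.75e-12) in WT for Col4a1, and -0.82 ± 0.068 (adjusted p = 5.68e-11) in KO and -1.07 ± 0.068 (adjusted p = 1.7e-13) in WT for Col4a2. Among the receptors and secreted factors, Pdgfrb changed by -0.88 ± 0.085 (adjusted p = 1.31e-09) in KO and -1.05 ± 0.086 (adjusted p = 2.5e-11) in WT. Cxcl12 changed by -1.13 ± 0.18 (adjusted p = 2.38e-05) in KO and -1.24 ± 0.18 (adjusted p = 5.05e-06) in WT, and Igfbp4 by -1.41 ± 0.23 (adjusted p = 4.89e-05) in KO and -1.58 ± 0.23 (adjusted p = 8.99e-06) in WT. The changes of the most abundant matrix genes were smaller, -0.51 ± 0.10 (adjusted p = 0.000122) in KO and -0.54 ± 0.10 (adjusted p = 4.04e-05) in WT for Col1a1 and -0.35 ± 0.087 (adjusted p = 0.00147) in KO and -0.54 ± 0.088 (adjusted p = 6.4e-06) in WT for Sparc. The contractile genes fell here too, with -0.69 ± 0.072 (adjusted p = 6.23e-09) in KO and -0.83 ± 0.072 (adjusted p = 9.68e-11) in WT for Acta2, and -0.67 ± 0.081 (adjusted p = 9.87e-08) in KO and -0.81 ± 0.082 (adjusted p = 1.67e-09) in WT for Tagln. The genes called in neither genotype were Fbn1 and Postn.

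Against this, 5 genes rose after IL-4 in both genotypes: Col6a1, Col6a2, Ibsp, Lox and Pdgfra. Col6a1 rose by 0.59 ± 0.085 (adjusted p = 1.37e-06) in KO and 0.49 ± 0.085 (adjusted p = 1.47e-05) in WT, and Col6a2 by 0.66 ± 0.076 (adjusted p = 3.33e-08) and 0.61 ± 0.076 (adjusted p = 9.02e-08), while Col6a3, of the same collagen, fell, with changes of -0.64 ± 0.10 (adjusted p = 8.65e-06) in KO and -0.71 ± 0.10 (adjusted p = 1.26e-06) in WT. Ibsp rose by 1.11 ± 0.24 (adjusted p = 0.000688) and 1.92 ± 0.25 (adjusted p = 1.97e-06), Lox by 0.44 ± 0.067 (adjusted p = 3.57e-06) and 0.32 ± 0.067 (adjusted p = 0.00017), and Pdgfra by 0.56 ± 0.082 (adjusted p = 2.28e-06) and 0.34 ± 0.082 (adjusted p = 0.000748). For these 5 genes all IL-4 libraries lay above all M0 libraries in both genotypes, while 25.2% of all genes did so in KO and 29.8% in WT. Igfbp3 rose in WT (2.59 ± 0.75, adjusted p = 0.00615), where it was at 3.51 to 4.69 CPM after IL-4 and 0.517 to 0.955 CPM in M0, and was not called in KO (0.13 ± 0.58, adjusted p = 0.875); the difference between the responses was -2.46 ± 0.96 (adjusted p = 0.24).

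**Figure D5:**
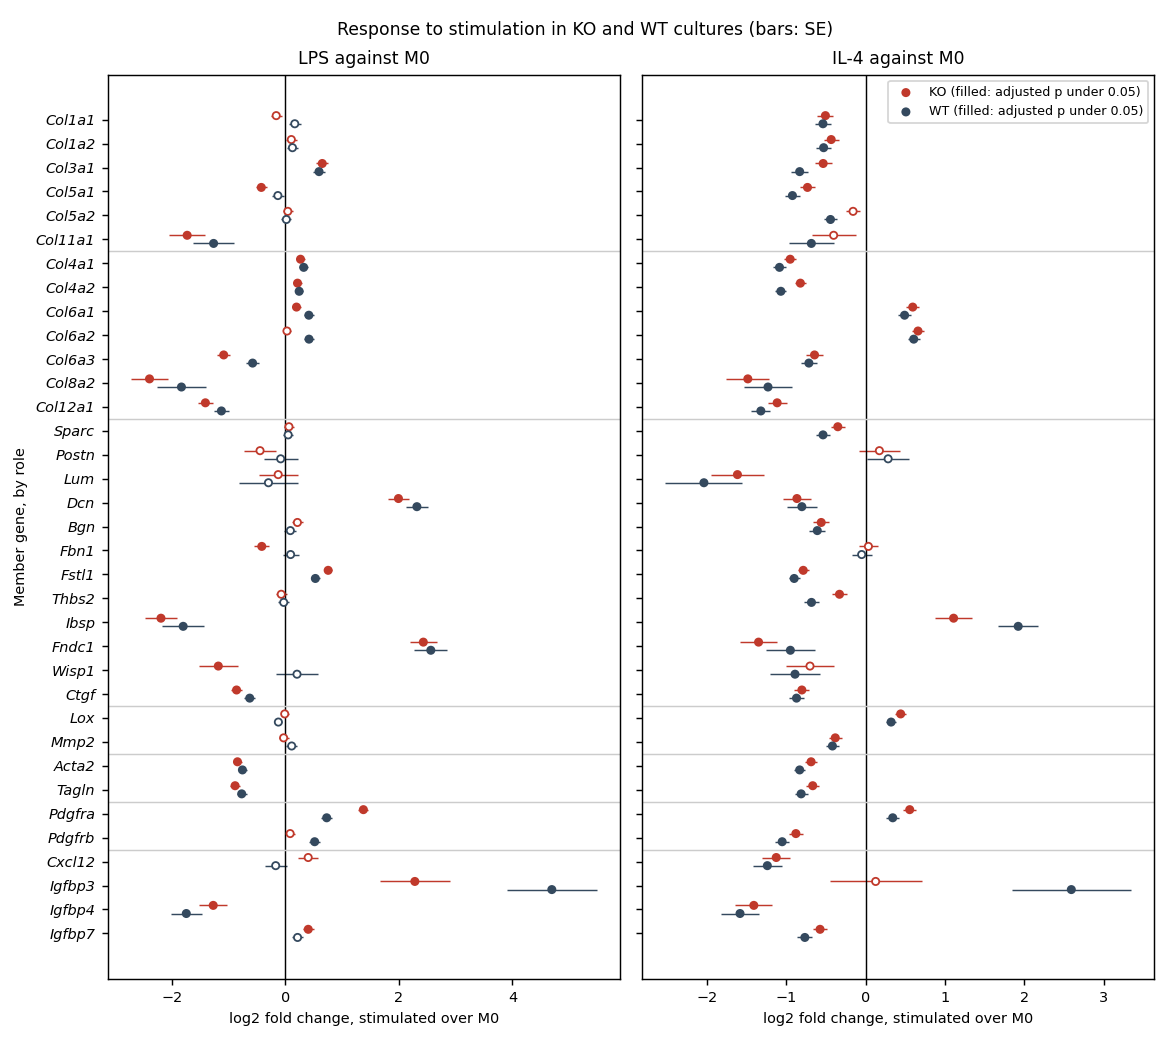
Points are log2 fold changes of LPS (left) and IL-4 (right) over M0 in KO (red, upper) and WT (blue, lower) with standard errors; filled points passed an adjusted p of 0.05. After LPS the genes lie on both sides of 0, with 10 higher and 12 lower in KO; after IL-4 most lie to the left, with Col6a1, Col6a2, Ibsp, Lox and Pdgfra to the right in both genotypes.

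The last comparison asks whether the response differs between genotypes. For LPS the difference was called for 4 of the 35 genes, 1 higher and 3 lower in KO, while 11.4% of all genes were called, 6.60% higher and 4.81% lower. The share called among the 35 was thus about that of all genes. Pdgfra rose more in KO, by 1.37 ± 0.088 (adjusted p = 3.81e-14), than in WT, by 0.73 ± 0.096 (adjusted p = 1.73e-07), a difference of 0.65 ± 0.13 (adjusted p = 0.00163). Its LPS values were 107, 111, 77.7 and 94.8 CPM in KO LPS, against 56.7, 31.4, 74.3 and 84.2 CPM in WT LPS. Pdgfrb rose in WT (0.52 ± 0.096) and was not called in KO (0.09 ± 0.089), a difference of -0.43 ± 0.13 (adjusted p = 0.0314). Col6a2 likewise rose in WT (0.42 ± 0.082) and was not called in KO (0.03 ± 0.078), a difference of -0.39 ± 0.11 (adjusted p = 0.024). Col6a3 fell in both, with changes of -1.08 ± 0.11 in KO and -0.58 ± 0.12 in WT, a difference of -0.51 ± 0.16 (adjusted p = 0.0369). The call of Pdgfra was kept in every alternative; those of Pdgfrb, Col6a2 and Col6a3 ended without WT LPS 3 (-0.32, -0.30 and -0.40, adjusted p = 0.207, 0.153 and 0.2), which leaves 1 deep WT LPS library, and likewise without WT LPS 4 (-0.38, -0.32 and -0.44, 0.125, 0.136 and 0.149). Without a single KO LPS library the value of Pdgfrb was -0.42 to -0.39 (0.0519 to 0.0789), that of Col6a3 -0.52 to -0.45 (0.0591 to 0.102), and that of Col6a2 -0.37 without KO LPS 6 (0.0613) and -0.32 without KO LPS 8 (0.0771). For IL-4 the difference was called for 0 of the 35 by edgeR's test and by DESeq2, with 5 at an unadjusted p under 0.05, while 1.12% of all genes were called. The interaction terms use the M0 libraries that the other comparisons also use.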

How the data were processed

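Total RNA of 24 macrophage libraries was sequenced. The values deposited by the authors are raw counts per gene; the submitters' processing notes name TopHat2 2.1.0, HTSeq 0.9.1 and mm10 (GRCm38), and no annotation or strand setting is given there. Without a strand, reads from the bases where genes overlap cannot be separated. For Col4a1 and Col4a2 this overlap is 22 bases, beside transcripts of 6615 and 6450 bases. HTSeq's unassigned lines, 8.76 to 9.98% of each library, were left out.

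Of 24421 genes, 14693 passed filterByExpr. Counts were scaled by TMM and fitted with edgeR 4.0.16 (R 4.3.3; quasi-likelihood, robust, 1 mean per group, all 24 libraries, 18 residual degrees of freedom), with Benjamini-Hochberg adjustment over all genes tested and a threshold of 0.05. Steps were tested on simulated counts. CPM per kilobase used GENCODE vM21 transcript lengths.

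The 35 genes, the gene lists and the tests were chosen with earlier results of these data known. Library values are given for genes called in at least 2 states and for Col1a1, Col1a2, Col3a1, Acta2, Tagln and Cxcl12; Lum, under 1 CPM, and the rest are given by ranges, and Igfbp3 and Pdgfra in part after their values were seen. Context lists have up to 3 named genes each. Besides these, markers at or near 0, Cd68 and genes with high levels in a list were named after their values were seen.

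Label numbers are the same in KO (5 to 8) and in WT (1 to 4) across states. Same-numbered libraries deviated together, with correlations over 0.1 in all 4 pairs, in KO IL-4 and M0 (0.358 to 0.602), and not in KO LPS and M0 (0.0493 to 0.130), WT LPS and M0 (-0.0745 to 0.0988) or WT IL-4 and M0 (-0.150 to 0.701). In KO IL-4 and M0 the pairs with different numbers ran from -0.619 to 0.617. There, 3 of the 4 IL-4 libraries correlated best with the M0 library of their own number. Alternatives were RLE scaling, no filter, DESeq2 1.42.0, a replicate block (edgeR, or limma 3.58.1 for KO against WT) and leaving out libraries.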

Additional observations from a re-analysis of the deposited data

Results flagged for a closer look

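In 210 groups of 4 libraries (35 genes, 6 groups), 10 had a highest or lowest library farther from its nearest neighbour, relative to the group's range, than the 95% critical value of Dixon's test allows; by chance about 1 group in 20 does so. Of these, 6 were values of the shallow libraries, from 0 to 192 counts. The shallow libraries also had TMM factors of 0.926 to 0.968, against 0.784 to 0.864 in the deep LPS libraries. This lowers their CPM at an equal share of counts, and its part in these values was not tested. Tagln stood at 676 CPM in KO LPS 7 (113 counts) and at 990.2 CPM in WT LPS 1 (192 counts). Col8a2 stood at 5.98 CPM in KO LPS 7 (1 count). Fbn1 stood at 124 CPM (24 counts) and Thbs2 at 820.0 CPM (159 counts) in WT LPS 1, and Igfbp3 at 0 in WT LPS 2. Deep libraries gave the other 4. In KO LPS 8, Col1a2 stood at 6528 CPM (5834 to 5941 CPM in the other KO LPS libraries), Col5a1 at 1347 CPM (1286 to 1294 CPM) and Col11a1 at 57.7 CPM (23.9 to 29.1 CPM). Col1a1 stood at 4599 CPM in WT M0 3 and at 5539 to 5660.1 CPM in the other WT M0 libraries.

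The LPS response differed between KO and WT for 4 of the 35 genes by the interaction term of edgeR's quasi-likelihood test. This is about the same share as the 11.4% of all genes. Of the 4 calls 1, that of Pdgfra, was kept in every alternative. The differences, KO minus WT on the log2 scale, were 0.65 for Pdgfra, -0.39 for Col6a2, -0.51 for Col6a3 and -0.43 for Pdgfrb (adjusted p = 0.00163, 0.024, 0.0369 and 0.0314).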

How the results depend on the processing

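Under RLE scaling, no filter, DESeq2, the 24 fits that leave out 1 library, the fits without the shallow libraries or without a pair of KO numbers, and the replicate block, no called member changed sign. Of the calls, those kept throughout were 20 of 23 for KO against WT in M0, 9 of 18 in LPS, 22 of 27 in IL-4, 17 of 22 for LPS against M0 in KO, 18 of 20 in WT, 29 of 29 for IL-4 against M0 in KO, 32 of 33 in WT, and 1 of 4 for the LPS interaction (Pdgfra). Leaving out 1 library gave 20 to 25 higher and 0 to 1 lower in KO M0 (1, Pdgfra, in 18 of 24 fits), 15 to 18 and 0 to 1 in KO LPS (1, Tagln, in 16 of 24), and 24 to 28 and 0 in KO IL-4. For LPS against M0 in KO it gave 6 (without KO M0 7) to 12 higher and 12 to 18 lower, and for the LPS interaction 1 (without WT LPS 3) to 8 (without KO M0 5). With any M0 or IL-4 library left out (16 fits), TMM took KO LPS 7 as its reference, and the median of all genes for LPS against M0 moved by up to -0.166 in KO and -0.132 in WT.

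Without the shallow libraries, 1 gene (Pdgfra) was lower in KO M0. Without KO numbers 5 and 6, 26 genes were higher and 2 (Igfbp4, Pdgfra) lower in KO M0, 15 and 1 (Ctgf) in KO LPS, and 30 and 1 (Igfbp4) in KO IL-4, and the interactions had 13 calls for LPS (12.8% of all genes) and 1 for IL-4 (Igfbp3; 4.71%). Without 7 and 8, 24 genes were higher in KO M0, 21 higher and 1 (Wisp1) lower in KO LPS and 27 higher in KO IL-4, 16 rose with LPS in KO, and the 4 LPS interactions were Fstl1, Igfbp4, Pdgfra and Wisp1. With the replicate block, 1 gene (Pdgfra) was lower in KO M0, and 7 LPS (20.3% of all genes) and 2 IL-4 interactions (Col4a2, Thbs2; 8.04%) were called; the block ended the KO against WT calls of Col5a1 in LPS and Dcn in IL-4 and no IL-4 against M0 call in KO. The cause of these changes was not tested. Over all genes, DESeq2 called 765 higher and 676 lower in KO M0 (edgeR 1708 and 1523), 1620 and 1051 in KO LPS (2366 and 2136), and 1485 and 1321 in KO IL-4 (2604 and 2653).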
